A study of Mus musculus with 8 samples.

Results

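The genes described here encode proteins of the cardiac sarcomere, the contractile unit of heart muscle, and of the Z disc that joins one sarcomere to the next. They are 30 genes named by symbol for their known place in these structures, and the list was made with earlier results of these data known. All 30 were found by NCBI Gene number among the 18215 gene numbers listed in at least 1 library. Polyadenylated RNA from the hearts of Carns transgenic mice (TG, 4 libraries) and of wild-type mice (WT, 4 libraries) was sequenced, and the comparison asks which heart transcripts differ when carnosine synthase is overexpressed. The labels name no promoter or line for the transgene, and no strain, age or sex for either group. Nor do they state that each sample is a different animal. The p-values therefore set the difference of the groups against the spread of these samples, which may in part be technical.

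In the sarcomere, myosin of the thick filament pulls on actin of the thin filament, and the troponin complex with tropomyosin makes this pull depend on calcium. Titin spans the distance from the Z disc to the M band, where myomesins tie the thick filaments together, and alpha-actinin anchors the thin filaments in the Z disc. Around alpha-actinin sits a layer of LIM-domain, myozenin, myotilin and filamin proteins that bear load and carry signals, and dedicated chaperones fold myosin before it is built in. Several of these genes are known for inherited cardiomyopathy in humans.

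The libraries held 6261193 to 7897629 expected counts and 15877 to 16109 listed genes each. Carns1 itself stood at 19071 to 24288 CPM (counts scaled to a common library size) in the TG libraries and at 44.5 to 73.3 CPM in the WT libraries, as the labels say. All 12 markers of heart muscle outside the sarcomere, among them Ryr2 and Pln, were listed, with summed levels of 43248 to 48902 CPM in TG and 48260 to 54581 CPM in WT. The libraries fell into 4 with higher totals (at least 7394143; TG replicates 1 and 3, WT replicates 1 and 2) and 4 with lower totals (at most 6557621; TG replicates 2 and 4, WT replicates 3 and 4). These are called the deeper and the shallower libraries below. They are not groups of the study, and the labels name no batch.

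The 30 genes together took 9.88% to 11.4% of all expected counts of a library. The share was 10.4 ± 0.60% over the 4 TG and 10.7 ± 0.55% over the 4 WT libraries (SD), and no test was made of this summed value. The total includes the counts of Carns1, which are high in TG only. Without them the share was 10.7, 10.2, 11.4 and 10.1% in TG replicates 1 to 4. In WT replicates 1 to 4 it was then 11.4, 10.9, 10.4 and 10.2%. Levels between genes are compared in FPKM (the authors' values per kilobase of gene and per library size), which are per length. Myl2, the ventricular regulatory light chain of myosin, had the highest mean level over the 8 libraries at 14620.4 FPKM, followed by cardiac actin Actc1 at 11774 and alpha-tropomyosin Tpm1 at 8202 FPKM, and the ranges of Myl2, Actc1 and Tpm1 did not overlap. Tnni3, Myl3, Tnnt2, Tnnc1 and Myh6 came next, with means from 6597 down to 4272 FPKM, and each overlapped its neighbour in this order.

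A gap separated Myh6 from desmin (Des, 1223 FPKM), with the ranges of the 8 libraries apart. From Des down to Ldb3 (769.8 FPKM) the order was Des, Myoz2, Tcap, Fhl2, Csrp3, Actn2, Mybpc3 and Ldb3, and every neighbouring pair in it overlapped. Below a further gap stood Lmod2 at 265 FPKM, then Smyd1, Myom1, Pdlim5, Tmod1, Myom2, Mylk3, Unc45b, Flnc, Synpo2l, Murc, Myot and titin (Ttn, 19.2 FPKM), again with overlapping neighbours. Nebl, which encodes nebulette, was lowest at 9.56 FPKM, below every value of Ttn. The spread over the 8 libraries was smallest for Actc1, with a coefficient of variation of 2.72%, and largest for Myot, Tcap, Pdlim5 and Myom2, at 40.9%, 30.9%, 30.2% and 30.1%.

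**Figure D1:**
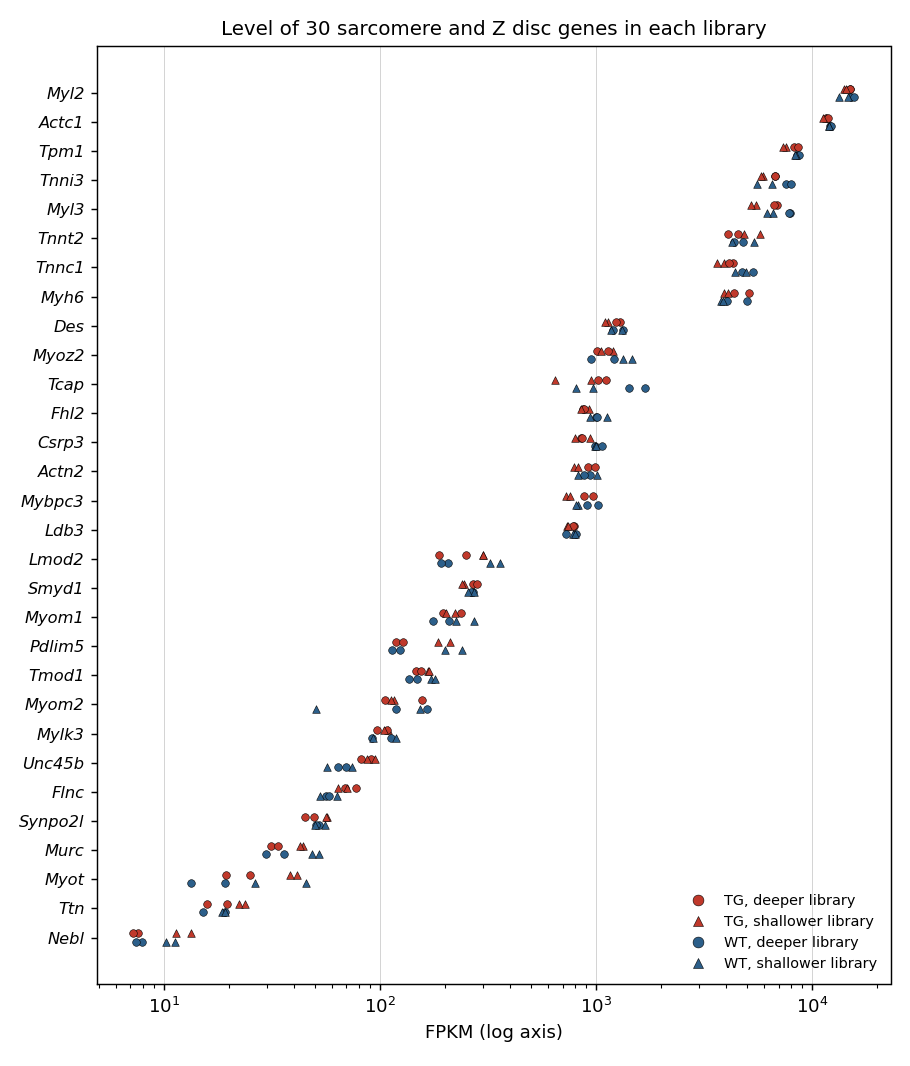
FPKM (log axis) of each of the 30 genes in each of the 8 libraries, ordered by mean level, with TG in red, WT in blue, deeper libraries as circles and shallower ones as triangles. The levels run from Nebl at 9.56 to Myl2 at 14620.4 FPKM. In several genes, among them Pdlim5, Lmod2, Nebl, Murc and Mybpc3, the triangles sit apart from the circles in both colours.

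No member passed the threshold between TG and WT. With edgeR's quasi-likelihood test and Benjamini-Hochberg adjustment over all 12670 genes tested, 0 of the 30 members had an adjusted p under 0.05, against 2 genes in all (0.0158%), and DESeq2 called 0 members as well, against 0.118% of the same genes. Without adjustment 4 members had a p under 0.05, against 3.49% of all genes. These were Unc45b and Flnc, higher in TG (1.53% of all genes), and Tnnc1 and Csrp3, lower in TG (1.96%). The TG and WT libraries of 3 members, Unc45b, Flnc and Csrp3, did not overlap, against 2.53% of all genes (1.23% higher and 1.29% lower in TG). The fold change was negative for 19 of the 30 members and for 50.5% of all genes, and the median log2 fold change of the members was -0.032, with -0.002 over all genes tested. In pieces of heart, fewer cells of a type and less RNA per cell cannot be told apart.

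**Figure D2:**
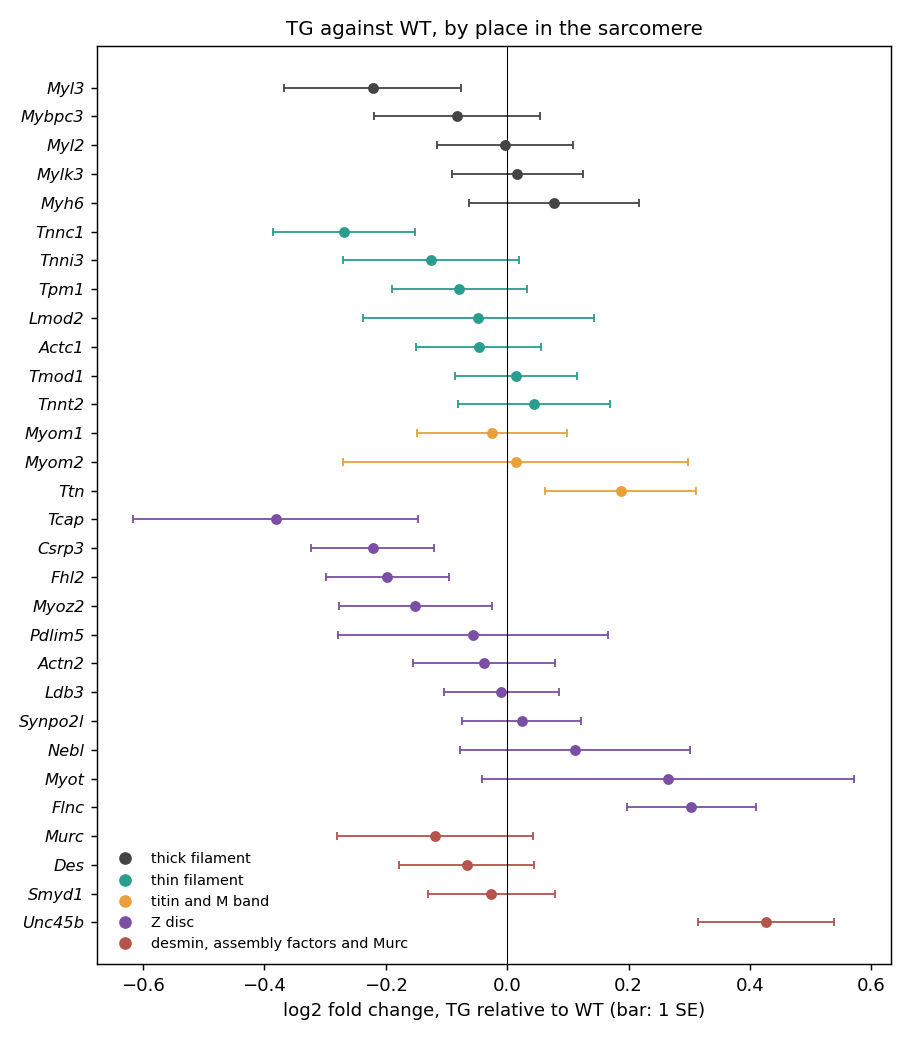
Log2 fold change of TG relative to WT for the 30 genes from the edgeR fit over 4 TG and 4 WT libraries, coloured by place in the sarcomere, with bars of 1 SE. The values run from -0.38 for Tcap to 0.43 for Unc45b, with bars of 0.23 and 0.11.

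In the thick filament, none of the 5 members passed the threshold between the groups. Myh6, the alpha myosin heavy chain that drives contraction in the adult mouse heart, had a log2 fold change of 0.08 (SE 0.14), and Mybpc3, the cardiac myosin-binding protein C, of -0.08 (SE 0.14). Mylk3, the kinase that phosphorylates the regulatory light chain, had 0.02 (SE 0.11). Its substrate Myl2 was at 9432, 8498, 9340.1 and 8460.2 CPM in the TG libraries and 9244, 10013, 8816 and 7756 CPM in the WT libraries, in the order of replicates 1 to 4, which holds for all such lists below. The groups overlapped and their means were nearly level, with a log2 fold change of -0.004 (SE 0.11). The essential light chain Myl3 was at 6227, 4794, 6012 and 4461 CPM in the TG libraries and 6933, 7211, 5725 and 5195 CPM in the WT libraries. WT replicates 1 and 2 were highest and TG replicates 2 and 4 lowest, the groups overlapped, and the log2 fold change of -0.22 (SE 0.15) did not pass the threshold (edgeR, Benjamini-Hochberg adjusted p = 0.9995).

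In the thin filament, cardiac actin Actc1 was at 17367, 16763, 17654 and 15841 CPM in the TG libraries and 17586, 18623, 17072 and 16594 CPM in the WT libraries. The groups overlapped, with a log2 fold change of -0.05 (SE 0.10). Tpm1, which winds along actin, was at 10196, 9062, 10654 and 8597 CPM in the TG libraries and 10263, 10908, 9936 and 9559 CPM in the WT libraries, and TG replicates 2 and 4 were the lowest of the 8. Tnnt2, the troponin subunit that binds tropomyosin, was at 4915, 6679.7, 5435 and 5539 CPM in the TG libraries and 5645, 5330.5, 6166 and 4749 CPM in the WT libraries, highest in TG replicate 2 and lowest in WT replicate 4. Their log2 fold changes were -0.08 (SE 0.11) and 0.04 (SE 0.13), within overlapping groups. Tnni3, the inhibitory subunit, was at 5799, 4916, 5775 and 4707 CPM in the TG libraries and 6341, 6995, 5354 and 4437 CPM in the WT libraries, and its groups overlapped, with a log2 fold change of -0.13 (SE 0.15).

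Tnnc1, the calcium-binding troponin subunit, was at 3024, 2652, 2869 and 2394 CPM in the TG libraries and 3228, 3803, 2939.7 and 3213 CPM in the WT libraries. TG replicate 4 was lowest and WT replicate 2 highest, and the groups overlapped only in that TG replicate 1 lay above WT replicate 3. The means were 2735 ± 273 CPM over the 4 TG and 3296 ± 363 CPM over the 4 WT libraries (SD), a log2 fold change of -0.27 (SE 0.12), which did not pass the threshold (edgeR, unadjusted p = 0.0388, Benjamini-Hochberg adjusted p = 0.9995). The leiomodin Lmod2, which starts and lengthens thin filaments, had a log2 fold change of -0.05 (SE 0.19). Tropomodulin Tmod1, which caps their pointed ends, had 0.01 (SE 0.10).

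Of titin and the M band proteins, Ttn was at 1377, 1879, 1705 and 1947 CPM in the TG libraries and 1625, 1336, 1549 and 1558 CPM in the WT libraries. TG replicates 2 and 4 were highest and WT replicate 2 lowest, the groups overlapped, and the log2 fold change was 0.19 (SE 0.12). Myom1, an M band crosslinker, had a log2 fold change of -0.02 (SE 0.12). Its relative Myom2 was at 545, 580.2, 806 and 553 CPM in the TG libraries and 831, 626, 760.0 and 244 CPM in the WT libraries. TG replicate 3 stood above the other 3 TG libraries and WT replicate 4 below every other library. The log2 fold change was 0.01 (SE 0.28), and its SE was the widest of the members after that of Myot.

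In the Z disc, the members with the largest fold changes went in both directions. Flnc encodes filamin C, an actin crosslinker at the Z disc and the cell membrane, and it was at 648, 579.7, 731 and 633 CPM in the TG libraries and 514, 556, 472 and 558 CPM in the WT libraries. Every TG library lay above every WT library, with TG replicate 3 highest. The means were 648 ± 62.5 CPM over the 4 TG and 525 ± 40.6 CPM over the 4 WT libraries (SD), 1.23 times as high in TG. The log2 fold change of 0.30 (SE 0.11) did not pass the threshold (edgeR, unadjusted p = 0.014, Benjamini-Hochberg adjusted p = 0.9995), and it lay between 0.24 and 0.37 under the other settings tried.

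Csrp3 encodes muscle LIM protein, a Z disc adaptor, and was at 894, 948, 899 and 797 CPM in the TG libraries and 1016, 1139, 995 and 975 CPM in the WT libraries. Every TG library lay below every WT library, with TG replicate 4 lowest and a narrow gap between TG replicate 2 and WT replicate 4. The means were 884 ± 63.4 CPM over the 4 TG and 1031 ± 73.7 CPM over the 4 WT libraries (SD), and the log2 fold change of -0.22 (SE 0.10) did not pass the threshold (edgeR, unadjusted p = 0.0475, Benjamini-Hochberg adjusted p = 0.9995). It lay between -0.27 and -0.17 under the other settings tried. Another LIM-domain gene, Fhl2, was at 1266, 1299, 1271 and 1174 CPM in the TG libraries and 1412, 1491, 1568 and 1275 CPM in the WT libraries. The groups overlapped only in TG replicate 2 against WT replicate 4, with a log2 fold change of -0.20 (SE 0.10). The summed heart muscle markers outside the sarcomere, at 43248 to 48902 CPM in TG and 48260 to 54581 CPM in WT, overlapped as well, with 7 of 12 having a negative fold change and none called, and their part in the lower levels of Tnnc1, Csrp3 and Fhl2 was not tested.

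Tcap encodes telethonin, which ties the ends of titin together in the Z disc, and it had the largest negative fold change of the members. It was at 981, 877, 1059 and 587 CPM in the TG libraries and 1571, 1385, 744 and 864 CPM in the WT libraries. WT replicates 1 and 2 were far above the rest, and the other 6 libraries overlapped across the groups. The log2 fold change of -0.38 (SE 0.23) did not pass the threshold (edgeR, unadjusted p = 0.129, Benjamini-Hochberg adjusted p = 0.9995). In the deeper libraries alone, 2 against 2, it was -0.54 (edgeR with Benjamini-Hochberg adjustment, adjusted p = 0.0205), where 59 of 12670 genes were called. In the shallower libraries alone it was -0.13 (edgeR, Benjamini-Hochberg adjusted p = 0.984). The test of that difference gave an unadjusted p of 0.0939 and a Benjamini-Hochberg adjusted p of 0.985 (edgeR, group by depth class). The fits within a depth class were chosen after their values were seen.

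Myoz2, a myozenin that binds calcineurin and alpha-actinin, was at 1190.5, 1364, 1330.2 and 1176 CPM in the TG libraries and 1084, 1447, 1491 and 1597 CPM in the WT libraries. WT replicate 4 was highest and WT replicate 1 lowest, so the WT libraries spanned all of the TG values, with a log2 fold change of -0.15 (SE 0.13). Myot encodes myotilin, which binds alpha-actinin and filamin, and was at 57.5, 90.9, 44.1 and 82.7 CPM in the TG libraries and 29.9, 44.7, 58.1 and 96.6 CPM in the WT libraries. Both groups spread widely and overlapped, with a log2 fold change of 0.27 (SE 0.31). The other Z disc members, Actn2 (alpha-actinin), Ldb3 (cypher), Nebl, Pdlim5 (an alpha-actinin-binding LIM protein) and Synpo2l, had log2 fold changes of -0.04, -0.01, 0.11, -0.06 and 0.02, each smaller than its SE (0.12, 0.09, 0.19, 0.22 and 0.10).

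Unc45b, the muscle chaperone that folds the myosin motor domain, had the largest positive fold change and the smallest p of the members. It was at 350.2, 323, 313 and 343 CPM in the TG libraries and 238, 273, 273 and 204 CPM in the WT libraries. Every TG library lay above every WT library, and WT replicate 4 was lowest. The means were 332 ± 17.3 CPM over the 4 TG and 247 ± 32.9 CPM over the 4 WT libraries (SD), 1.34 times as high in TG. The log2 fold change of 0.43 (SE 0.11) did not pass the threshold after adjustment (edgeR, unadjusted p = 0.00235, Benjamini-Hochberg adjusted p = 0.678). Under the other settings tried, it lay between 0.34 and 0.48.

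Smyd1, a muscle methyltransferase known as a partner of this chaperone in myosin assembly in zebrafish, had a log2 fold change of -0.03 (SE 0.10). Des, the intermediate filament that links neighbouring Z discs, had -0.07 (SE 0.11). Murc, a cavin of the muscle membrane found near the Z disc and named Cavin4 in RefSeq, had -0.12 (SE 0.16). These 3 groups of values overlapped between TG and WT, and none passed the threshold.

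**Figure D3:**
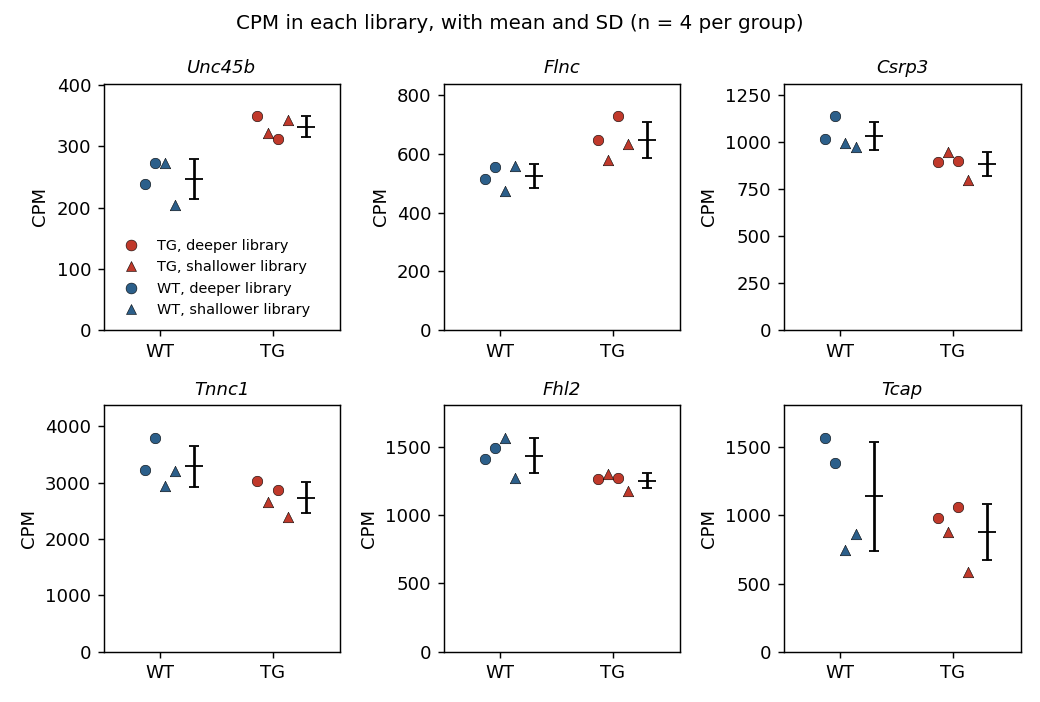
CPM of Unc45b, Flnc, Csrp3, Tnnc1, Fhl2 and Tcap in each of 4 WT and 4 TG libraries (circles for deeper, triangles for shallower), with the group mean and SD beside the points. The TG points lie above all WT points for Unc45b and Flnc and below all of them for Csrp3, while in Tcap the 2 deeper WT libraries at 1571 and 1385 CPM stand above the rest.

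To show what the members share at their start sites, the 250 bases before the first start RefSeq lists for a gene (assembly GRCm38.p6) were searched on both strands for 5 motifs known from muscle or core promoters. A window was found for 27 of the 30 members and for 27025 genes in all. The CArG box, the binding sequence of serum response factor, occurred in 5 of the 27 member windows (18.5%) and in 1.4% of all windows. The element bound by MEF2 factors occurred in 5 of 27 (18.5%) and in 3.01%. CATTCC, bound by TEAD factors, occurred in 7 of 27 (25.9%) and in 12.6%, CANNTG, the E-box, in 22 of 27 (81.5%) and in 66%, and TATAAA in 3 of 27 (11.1%) and in 13%.

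The windows with a CArG box were those of Fhl2, Actc1, Myl3, Ldb3 and Myom1, where the box began 96, 47, 85, 35 and 99 bases before the start. The windows with a MEF2 element were those of Fhl2, Ttn, Mybpc3, Myoz2 and Synpo2l, so Fhl2 alone held both, and there the MEF2 element overlaps a TATAAA read on the other strand. The last 120 bases before the start are printed for the 5 genes with a CArG box, because that box had the lowest share of the 5 motifs in all windows, with the box and any MEF2 element in capitals.
Fhl2 (chr1:43196762-43196881, minus strand): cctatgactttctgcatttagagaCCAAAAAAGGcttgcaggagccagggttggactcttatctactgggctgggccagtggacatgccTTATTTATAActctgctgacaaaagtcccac
Actc1 (chr2:114052876-114052995, minus strand): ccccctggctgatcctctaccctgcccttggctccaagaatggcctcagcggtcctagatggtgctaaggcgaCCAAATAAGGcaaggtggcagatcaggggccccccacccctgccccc
Myl3 (chr9:110763558-110763677, plus strand): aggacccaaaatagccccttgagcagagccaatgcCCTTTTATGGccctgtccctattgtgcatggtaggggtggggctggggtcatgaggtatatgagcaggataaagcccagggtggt
Ldb3 (chr14:34588682-34588801, minus strand): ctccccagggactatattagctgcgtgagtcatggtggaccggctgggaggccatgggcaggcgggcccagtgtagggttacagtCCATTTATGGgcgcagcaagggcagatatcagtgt
Myom1 (chr17:71019437-71019556, plus strand): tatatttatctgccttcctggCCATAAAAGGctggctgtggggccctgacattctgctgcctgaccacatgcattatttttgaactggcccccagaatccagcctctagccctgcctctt

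The same stretch is printed for the 3 members whose TG and WT libraries did not overlap, so that they can be read beside their values. None of these 3 windows of 250 bases held a CArG box, a MEF2 element, CATTCC or TATAAA, and a match or its absence in such a window says nothing of whether a factor binds there.
Unc45b (chr11:82911133-82911252, plus strand): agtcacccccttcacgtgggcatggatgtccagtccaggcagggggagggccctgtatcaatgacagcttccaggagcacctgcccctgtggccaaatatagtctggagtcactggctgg
Flnc (chr6:29433033-29433152, plus strand): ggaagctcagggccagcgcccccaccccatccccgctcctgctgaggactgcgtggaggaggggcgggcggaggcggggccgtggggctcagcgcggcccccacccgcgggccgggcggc
Csrp3 (chr7:48848052-48848171, minus strand): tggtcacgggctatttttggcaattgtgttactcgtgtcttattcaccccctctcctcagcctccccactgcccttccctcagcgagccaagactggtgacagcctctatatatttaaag

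The log2 fold changes of the 5 genes with a CArG box were -0.20 for Fhl2, -0.22 for Myl3, -0.05 for Actc1, -0.01 for Ldb3 and -0.02 for Myom1. All 5 were negative, as were 19 of the 30 members and 50.5% of all genes, and none passed the threshold. Those of Actc1, Ldb3 and Myom1 were smaller than their SE (0.10, 0.09 and 0.12), and Ldb3 and Myom1 changed sign under other settings. The genes with a MEF2 element went both ways, at -0.20 for Fhl2, -0.08 for Mybpc3, -0.15 for Myoz2, 0.19 for Ttn and 0.02 for Synpo2l.

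The gene length that the authors' tables list beside each FPKM also differed for Myh6. The tables give 2 transcripts for this gene, and the listed length, in bases, was 6061.72, 6054.81, 6060.47 and 6060.23 in the TG libraries and 6040.43, 6042.08, 6037.71 and 6043.74 in the WT libraries. Every TG value was above every WT value, with means of 6059.3 ± 3.07 and 6041.0 ± 2.57 bases (SD, n = 4 each). Of the 13 members whose listed length varied between libraries, the groups did not overlap in Myh6 only, against 69 of 3868 tested genes (1.78%). In the GENCODE M21 annotation the 2 transcripts are 6113 and 6008 bases long with 39 exons each. They differ in exon 1 (88 and 52 bases) and exon 2 (133 and 69 bases), which hold only untranslated sequence, and in exon 39 (81 and 76 bases).

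The TG values thus lie nearer to the longer transcript than the WT values do, and all 8 values together span 0.398% of the length. Which program set the listed length is not stated in the labels used here. This difference was picked out after its values were seen, so it has no test, and its cause was not tested.

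**Figure D4:**
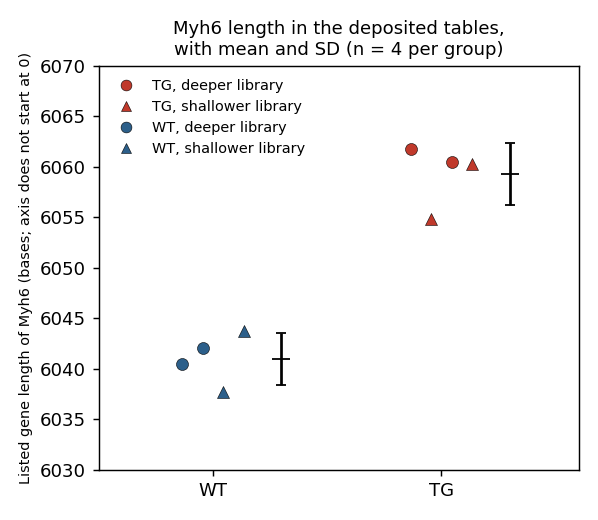
Listed gene length of Myh6 in bases in the 4 WT and 4 TG tables, with mean and SD, on an axis that does not start at 0. The TG values lie at 6054.81 or more and the WT values at 6043.74 or less.

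The share of fetal, atrial or skeletal forms beside 4 of the members was compared within each library in FPKM. Myh7, the slow beta myosin heavy chain, made up 0.408 ± 0.114% of Myh6 plus Myh7 over the 4 TG and 0.339 ± 0.124% over the 4 WT libraries (SD; exact permutation test, two-sided, p = 0.543). The difference of 0.0692 percentage points was 0.0124 without TG replicate 4 and 0.00987 without WT replicate 4. Skeletal actin Acta1 made up 3.50, 3.65, 3.70 and 4.41% of Acta1 plus Actc1 in the TG libraries and 0.995, 2.15, 2.05 and 7.68% in the WT libraries. WT replicate 4 was above all TG libraries and the other 3 WT libraries below them (difference of means 0.593 percentage points, exact permutation test, p = 0.771). Without WT replicate 4 the difference was 2.08 percentage points, a value given with no test because that library was singled out after it was seen.

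The atrial light chain Myl7 made up 0.0323, 2.47, 0.0205 and 0.583% of Myl2 plus Myl7 in the TG libraries and 0.215, 0.0202, 0.0163 and 0.169% in the WT libraries (exact permutation test, p = 0.286). TG replicate 2 was highest, and without it the difference of means fell from 0.671 to 0.107 percentage points. In the same library the 7 atrial markers other than Myl7, Myl4 and Mybphl summed to 1187 CPM and the fat markers to 1686 CPM, with at most 887 and 648 CPM in the others. Their part in the share was not tested. Tnni1, the slow skeletal troponin I, was at most 0.0159% of Tnni1 plus Tnni3 in any library, and its groups overlapped (exact permutation test, p = 0.943). With Benjamini-Hochberg adjustment over the 4 shares, every p was 0.943, and the smallest p that 4 against 4 can give is 0.0286.

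A wider list of 58 genes of the sarcomere, its turnover and its transcription factors held 53 that passed the filter on low counts, and 0 of them passed the threshold in edgeR or in DESeq2. Ankrd2, Myoz1, Myoz3, Tnnc2 and Tnni1 did not pass that filter. The median of the 53 was a log2 fold change of 0.027, with 30 positive and 23 negative. The 4 with the smallest p among the higher ones were beta-tropomyosin Tpm2 and the atrial genes Myl7, Mybphl and Myl4, all 4 with an unadjusted p under 0.05 (1.53% of all genes were higher in TG at that p) and a Benjamini-Hochberg adjusted p of 0.9995 (edgeR). Tpm2 was at 58.7, 63.1, 54.8 and 58.8 CPM in the TG libraries and 46.0, 51.2, 39.4 and 48.6 CPM in the WT libraries. Every TG library lay above every WT library, with a log2 fold change of 0.35 (SE 0.11), and it was the 1 of 53 whose groups did not overlap, against 2.53% of all genes. The other 3 were high in TG replicate 2, with Myl7 at 203, Myl4 at 249 and Mybphl at 33.6 CPM there, and at most 46.8, 63.7 and 5.50 CPM in any other library.

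The 4 with the smallest p among the lower ones were Fbxo32, a muscle ubiquitin ligase subunit, Hspb7, a small heat shock protein of the heart, palladin (Palld) and the transcription factor Mef2c. Their log2 fold changes were -0.17 (SE 0.11), -0.17 (SE 0.11), -0.14 (SE 0.10) and -0.22 (SE 0.16), their groups overlapped, and none passed the threshold (edgeR, Benjamini-Hochberg adjusted p = 0.9995). Acta1 was at 638, 645, 687 and 741 CPM in the TG libraries and 179, 415, 362 and 1401 CPM in the WT libraries, with WT replicate 4 at more than all others and a log2 fold change of 0.20 (SE 0.45). Of the WT libraries, the deeper class holds only replicates 1 and 2, which leaves replicate 4 out. In the deeper libraries alone, the log2 fold change of Acta1 was 1.16 (edgeR with Benjamini-Hochberg adjustment, adjusted p = 0.0372), where 59 of 12670 genes were called. In the shallower libraries alone it was -0.35 (edgeR, Benjamini-Hochberg adjusted p = 0.984). The test of that difference gave an unadjusted p of 0.0362 and a Benjamini-Hochberg adjusted p of 0.964 (edgeR, group by depth class). The fits within a depth class were chosen after their values were seen, so no conclusion on Acta1 is drawn from their p-values.

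More members passed the threshold between the deeper and shallower libraries than between TG and WT. In a fit with both terms, 12 of the 30 passed the threshold for depth class, against 32.2% of all genes tested. The 5 members higher in the shallower libraries (17.8% of all genes) were Myot, Pdlim5, Lmod2, Nebl and Murc, with log2 fold changes of 0.91, 0.71, 0.54, 0.54 and 0.44 (edgeR, Benjamini-Hochberg adjusted p at most 0.0031). The 7 lower ones (14.4% of all genes) were Tcap, Myl3, Tnni3, Mybpc3, Myh6, Tnnc1 and Tpm1, with log2 fold changes from -0.68 to -0.18 (adjusted p at most 0.0472). The 5 had mean levels of at most 265 FPKM and the 7 of at least 861 FPKM. Members not past the threshold went both ways at low and at high levels. At 262 and 122 FPKM, Smyd1 and Myom2 had log2 fold changes of -0.17 and -0.40, and Tmod1, at 160 FPKM, had 0.16. At 4750 and 1169 FPKM, Tnnt2 and Myoz2 had 0.12 and 0.15, and Myl2, at 14620 FPKM, had -0.18. Of the 53 tested genes of the wider list, 14 were higher and 7 lower in the shallower libraries at the same threshold.

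For Pdlim5 the deeper libraries lay at 247 to 280.4 CPM and the shallower ones at 389 to 489.8 CPM, 1.63 times as high. TG and WT stood on both sides alike, so the difference of Pdlim5 between TG and WT was -0.06 (SE 0.22) on the log2 scale. Lmod2 lay at 383 to 505 CPM in the deeper and 573 to 698 CPM in the shallower libraries. Tcap went the other way, at 981 to 1571 CPM in the deeper and 587 to 877 CPM in the shallower ones. The deeper and shallower ranges did not overlap in any of these 3 genes. This was not particular to them, since those of Nebl, Murc, Tmod1, Actc1 and Myl2, among other members, did not overlap either. The share of all genes with ranges apart between the depth classes was not computed. The summed fibroblast markers were also higher in every shallower library (1510 CPM or more) than in every deeper one (1369 CPM or less), with 5 of 8 past the threshold for depth class. Of the heart muscle markers outside the sarcomere, 6 of 12 passed it, with sums of 48768 to 54581 CPM in the deeper and 43248 to 49086 CPM in the shallower libraries, and of the atrial markers 5 of 9 tested. In the other lists, 2 of 4 tested skeletal muscle, 2 of 7 smooth muscle and 1 of 4 tested fat markers passed it. For endothelium it was 2 of 8, for macrophages 1 of 8 and for blood 0 of 5. Of all genes tested, 32.2% passed it. The share of all counts in the 30 members was at least 10.49% in the deeper and at most 10.39% in the shallower libraries. The part of these markers in the differences was not tested.

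**Figure D5:**
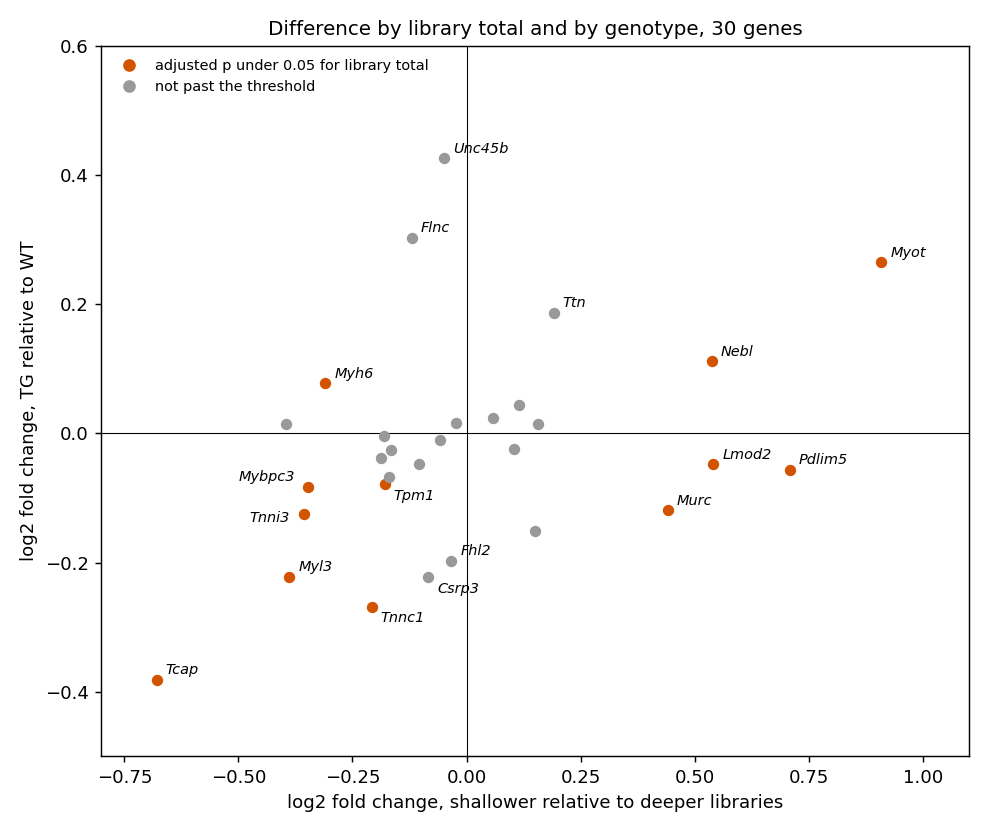
Log2 fold change between shallower and deeper libraries (horizontal) and between TG and WT (vertical) for the 30 genes, with the 12 past the threshold for depth class in orange. The horizontal values run from -0.68 for Tcap to 0.91 for Myot, and the vertical ones from -0.38 to 0.43.

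With depth class as a covariate, TG against WT still called 0 members, against 0.221% of all genes. An unadjusted p under 0.05 was reached by 8.97% of all genes and by 7 of the 30 members, Unc45b and Flnc higher (3.99% of all genes) and Tnnc1, Csrp3, Fhl2, Tcap and Myl3 lower (4.97%). Unc45b had a log2 fold change of 0.43 (SE 0.09) in that fit (edgeR, Benjamini-Hochberg adjusted p = 0.124). A test of whether the TG difference itself changed with depth class called 0 of 12670 genes, with 4.93% at an unadjusted p under 0.05 and 1 member, Myom1, among them (edgeR). The log2 fold change of Myom1 was 0.18 in the deeper and -0.21 in the shallower libraries.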

How the data were processed

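Heart RNA of 4 TG and 4 WT samples was extracted, enriched for polyadenylated mRNA and made into libraries by the Beijing Genomics Institute according to the labels, and groups were taken from the sample titles. The submitters' processing notes list Bowtie2 and mm8 (a mouse build), with neither role nor version. The counting program and its use of strand were not given in the sources used here. Each deposited table gives the authors' expected count, an estimate of the reads a gene received, not normalized, and the authors' FPKM, per the file headers, with a gene length beside them. Genes not listed in a library were taken as 0.

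Symbols came from an NCBI gene table of GRCm38.p6, matched by gene number (18174 of 18215). That build differs from mm8, so it gave names only. Promoter sequences are RefSeq's, with the coordinates of GRCm38.p6. Counts of paralogs such as Actc1 and Acta1, or Myh6 and Myh7, depend on how shared reads were divided.

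Expected counts were rounded. Genes were kept with filterByExpr (minimum count 10, minimum total 15), which left 12670. Genes were tested for group, two-sided, with the quasi-likelihood F-test of edgeR 4.0.16 (R 4.3.3, limma 3.58.1) after TMM scaling, adjusted by Benjamini-Hochberg over all genes, with a threshold of 0.05. The SE is the absolute log2 fold change over the square root of F. CPM use TMM-scaled library sizes, and 3 counts correspond to 0.380 to 0.479 CPM, which covers counting error only. DESeq2 (1.42.0), limma on FPKM, other scalings and filters, each library left out, a replicate block and the depth class were alternatives. The edgeR fit was also run on simulated counts, with the same spread setting for every gene and no difference by depth class. That run does not show how the test performs on these data. No pair of libraries within a group agreed within sampling noise (smallest chi-square per degree of freedom 4.45).

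The members and lists were chosen with earlier results of these data known, so no p is adjusted over the members alone. Values in every library are given for the 10 members with the smallest p, the 6 with the highest mean FPKM, any called by a tool and any with an outlying library. Of the wider list, the 4 genes with the smallest p in each direction and the 4 paralogs are named. The Myh6 length, the genes named for depth class and the fits within a depth class were chosen after their values were seen.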

Additional observations from a re-analysis of the deposited data

Results flagged for a closer look

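In groups of 4 libraries, 1 library stood apart from its group in 3 of the 92 groups examined by Dixon's criterion, which chance alone exceeds in about 1 group in 20. Myom2 was at 806 CPM in TG replicate 3, with the other TG libraries between 545 and 580 CPM. Mybphl, an atrial myosin-binding protein, was at 33.6 CPM in TG replicate 2 and at most 5.50 CPM in the other TG libraries. The Myh7 share of Myh6 plus Myh7 was 0.578% in TG replicate 4 and 0.339% to 0.366% in the other TG libraries.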

How the results depend on the processing

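Of 660 member fold changes under 22 other settings, 1 newly passed the threshold and 45, over 13 members, changed sign when rounded to 2 decimals (a value of 0.00 counts as no change). Myl2, at a log2 fold change of -0.00399, was given no direction, and the remaining members kept theirs in all 22, though not their size. With 1 library left out, the log2 fold changes of these ran as follows: Unc45b 0.34 to 0.48, Flnc 0.24 to 0.35, Tnnc1 -0.32 to -0.19, Csrp3 -0.26 to -0.17, Fhl2 -0.25 to -0.15, Tcap -0.54 to -0.19, Myl3 -0.30 to -0.14, Ttn 0.12 to 0.28, Myoz2 -0.25 to -0.08, Myot 0.05 to 0.64, Tnni3 -0.23 to -0.02, Murc -0.24 to -0.01, Tpm1 -0.13 to -0.03, Mybpc3 -0.18 to -0.01, Des -0.12 to -0.01, Actc1 -0.07 to -0.02. The 13 had fold changes between -0.06 and 0.11 to begin with, and the cause was not tested. With 1 library left out at a time, their log2 fold changes ranged as follows: Myh6 -0.02 to 0.18, Tnnt2 -0.05 to 0.11, Myom1 -0.10 to 0.07, Myom2 -0.25 to 0.20, Actn2 -0.11 to 0.02, Ldb3 -0.04 to 0.01, Nebl -0.05 to 0.23, Mylk3 -0.05 to 0.07, Lmod2 -0.16 to 0.11, Tmod1 -0.03 to 0.06, Pdlim5 -0.21 to 0.13, Synpo2l -0.01 to 0.08, Smyd1 -0.08 to 0.02. With voom and library weights the sign turned for Myom1 (0.03), Ldb3 (0.01), Lmod2 (0.05) and Pdlim5 (0.05). Within the shallower libraries it turned for Tmod1 (-0.05). Within the deeper libraries it turned for Tnnt2 (-0.09), Myom1 (0.18), Myom2 (-0.11), Actn2 (0.07), Ldb3 (0.05), Nebl (-0.04), Lmod2 (0.14), Pdlim5 (0.05), Synpo2l (-0.09) and Smyd1 (0.06).

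The count of members called stayed at 0 except within the deeper libraries, where it was 1 (Tcap, log2 fold change -0.54), as it was for the wider list (1, Acta1). In that fit 59 of 12670 genes were called. The median of the members lay between -0.074 and -0.013 with 1 library left out. It was -0.094 within the shallower libraries, -0.008 within the deeper ones and -0.005 with voom and library weights. Over all genes, 2 were called, and 1 to 3 with 1 library left out: 1 when TG replicate 2, TG replicate 4, WT replicate 2 or WT replicate 3 was dropped, and 3 without TG replicate 3. Every gene with a count gave 4, DESeq2 16, limma on log2(FPKM + 1) or log2(FPKM + 0.1) 1, the depth class 28, the deeper libraries 59 and the shallower libraries 4. Without the reads of Carns1, itself one of the 2, edgeR called 0, with 441 at an unadjusted p under 0.05.

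Whether the replicate numbers pair the samples was not settled. Deviations of same-numbered TG and WT libraries correlated at 0.24, -0.28, -0.18 and 0.40 over 12670 genes. Replicates 1 and 4 fall in the same depth class in both groups, and replicates 2 and 3 in opposite classes. These correlations therefore cannot tell pairing from library total. A fit with the replicate number as a block called 1 gene and 0 members, with a member median of -0.028.

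The TG minus WT difference in the Acta1 share ranged from -0.149 (without WT replicate 1) to 2.08 percentage points (without WT replicate 4), that of Tnni1 from -0.00284 to 0.00245, that of Myh7 from 0.00987 to 0.104 and that of Myl7 from 0.107 to 0.922. The SE of the member log2 fold changes ran from 0.09 to 0.31, which limits what 4 libraries a group could show.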
